A study of Mus musculus with 12 samples.

Results

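The interaction of the Asxl1 guide with CSF3R T618I is the difference between the T618I change in cells with that guide and the T618I change in cells with a non-targeting guide. It was measured in all 12 ATAC-seq libraries of the series, in 4 groups of 3. ATAC-seq uses a transposase that inserts sequencing adapters into accessible DNA, so that peaks of reads mark open chromatin. The groups were sgB2/T618I, with a guide made to truncate Asxl1 (sgB2) and the pMICH vector carrying CSF3R T618I, sgB2/Empty, with that guide and the empty vector, sgNT/T618I, with the non-targeting guide (sgNT) and the receptor, and sgNT/Empty, with the non-targeting guide and the empty vector. All were mouse HoxB8 cells, an immortalised bone marrow line of the kind held as progenitors by an estrogen-dependent Hoxb8, grown in stem cell factor and 0.6 µM estrogen and collected 48 h after estrogen was removed. The sources used here do not say whether guide cells were 1 clone or a pool, or whether replicate libraries stem from different cultures. The p-values thus reflect only how far these libraries spread, which may be technical. Of 21631 protein-coding genes on the autosomes and X, 15286 had enough peak coverage in the gene span ± 50 kb to be tested, and of 56682 merged peak regions the 37113 found in at least 2 libraries were used.

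CSF3R binds granulocyte colony-stimulating factor, the main cytokine that drives neutrophil production. The T618I form signals without its ligand through JAK and STAT proteins and is known from chronic neutrophilic leukaemia. ASXL1 is a scaffold of the BAP1 deubiquitinase, which removes the histone H2A mark placed by Polycomb, and truncating ASXL1 mutations often occur beside CSF3R mutations in such leukaemias. Removing estrogen switches off Hoxb8 in this kind of cell line and lets the progenitors mature along the myeloid lineage. The design sets both lesions together beside each alone and neither, so that responses can be described as additive, blunted or enhanced.

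An additive response means the same log2 change with T618I under either guide. Covered length is the number of base pairs under peaks within 50 kb of a gene, scaled to an equal total per library and given here in scaled kb. A log2 change is the difference in log2(scaled bp + 500), so changes from a group at 0 depend on the added 500 bp. The interaction is the T618I change with sgB2 minus the T618I change with sgNT, and a positive value means a higher T618I change with the Asxl1 guide. A T618I-responsive gene with an interaction of at least 0.5 log2 along its mean T618I change is called enhanced, and one with at least 0.5 against it blunted.

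The promoters below are shown because their peak calls carry the kinds of interaction described later. At Retnlg T618I added fewer libraries with a peak in sgB2 cells than in sgNT cells. At Myadm it took libraries away in sgB2 cells and added them in sgNT cells, and at Fgf3 the reverse. At Stfa2l1 it added libraries in sgB2 cells and left the count in sgNT cells unchanged. Each is the 250 bases before the RefSeq start of the gene on GRCm38.p6 (mm10), 5′ to 3′ on the gene's strand. Capitals mark matches on either strand to motifs searched as letters: TTCNNNGAA for STAT, GAGGAAGT for PU.1, TTGCNNAA for C/EBP, TGANTCA for AP-1 and TGTGGT for RUNX. Of 32619 mouse promoter windows of the same length, 7.05% held the STAT letters, 2.46% PU.1, 9.62% C/EBP, 6.78% AP-1 and 13.9% RUNX.
Retnlg, plus strand of chr16:48872358-48872607, C/EBP letters in capitals: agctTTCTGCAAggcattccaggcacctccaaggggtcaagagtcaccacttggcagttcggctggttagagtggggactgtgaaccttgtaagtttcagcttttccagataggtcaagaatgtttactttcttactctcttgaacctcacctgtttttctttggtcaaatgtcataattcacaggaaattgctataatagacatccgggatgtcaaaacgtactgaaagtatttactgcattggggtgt
Stfa2l1, plus strand of chr16:36156561-36156810, RUNX letters in capitals: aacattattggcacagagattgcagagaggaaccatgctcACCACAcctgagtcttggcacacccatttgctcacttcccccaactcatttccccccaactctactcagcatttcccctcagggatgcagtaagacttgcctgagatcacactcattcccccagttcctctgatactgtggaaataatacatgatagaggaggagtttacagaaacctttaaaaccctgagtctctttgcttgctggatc
Myadm, plus strand of chr7:3290305-3290554, no match: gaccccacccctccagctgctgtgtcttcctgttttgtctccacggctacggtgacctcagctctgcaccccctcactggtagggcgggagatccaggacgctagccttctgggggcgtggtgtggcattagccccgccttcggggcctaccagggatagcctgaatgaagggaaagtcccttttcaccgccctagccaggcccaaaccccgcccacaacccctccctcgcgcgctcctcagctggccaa
Fgf3, plus strand of chr7:144838362-144838611, C/EBP letters in capitals: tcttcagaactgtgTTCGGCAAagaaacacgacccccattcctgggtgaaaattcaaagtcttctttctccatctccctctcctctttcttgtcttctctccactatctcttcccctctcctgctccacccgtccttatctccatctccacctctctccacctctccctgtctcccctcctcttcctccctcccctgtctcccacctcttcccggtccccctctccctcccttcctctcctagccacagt

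The deposited lists held 23695 to 32975 peaks in sgB2/T618I, 20293 to 25891 in sgB2/Empty, 26112 to 29642 in sgNT/T618I and 18484 to 29699 in sgNT/Empty, and read depth is unknown. No interaction in a list-wide measure passed. T618I lists minus Empty lists differed between the guides by 218 peaks, 0.26 Mb of covered length and 5.67 bp of median width (two-sided exact permutation p = 0.96, 0.94 and 0.89, adjusted p = 0.96 for each; 400 arrangements, smallest p 0.005). Guide labels were exchanged within each vector, so a guide effect common to both vectors raises these p-values. Median width had such a gap, with group means of 450 against 491 bp with T618I and 409 against 456 bp with the empty vector (sgB2 against sgNT). Chromosome 1 took 9.14 ± 0.49% of covered length in sgB2/T618I and 9.36 ± 0.67% in sgB2/Empty, against 6.73 ± 0.13% in sgNT/T618I and 6.56 ± 0.14% in sgNT/Empty (SD, n = 3). The X took 1.77 ± 0.02% and 1.85 ± 0.02% in the sgB2 groups and 2.18 ± 0.03% and 2.19 ± 0.09% in the sgNT groups. These gaps between guides were alike with and without T618I, and none of 20 chromosomes had an interaction in its share (smallest limma adjusted p = 0.918; 0 at an unadjusted p below 0.05). At cell type markers, a promoter peak was found in all 12 libraries for 3 of 10 neutrophil, 1 of 4 promyelocyte, 3 of 5 stem and progenitor, 1 of 3 monocyte and 1 of 4 mast cell, basophil and eosinophil genes, and for no B lymphoid, T lymphoid or erythroid and megakaryocyte gene. No promoter peak was called in any library for the promyelocyte gene Prtn3, the monocyte gene Ly86, the eosinophil gene Epx, the B lymphoid genes Ebf1, Pax5, Cd79a and Vpreb1, the T lymphoid genes Cd3e and Bcl11b, and the erythroid and megakaryocyte genes Gata1, Klf1 and Hbb-bt. A list without a peak does not show that a promoter was closed.

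Across genes almost no interaction passed the test, which does not show that the responses were equal. Of 15286 genes, 0 had a higher T618I change with sgB2 (0% called) and 1, Amot, a lower one (0.00654% called; limma, Benjamini-Hochberg adjusted p below 0.05). At an unadjusted p below 0.05 there were 751 genes, or 4.91%, of which 345 were higher and 406 lower. Neighbouring genes share peaks, so these are not independent. After Amot, the smallest adjusted p was 0.344. The median 95% interval reached 0.48 log2 on either side, and for 13496 genes (88.3%) it lay within ± 1. Interactions of 1 log2 or more were therefore outside the interval at most genes. For those of 0.5 log2 in either direction this held at only 3053 genes.

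The T618I changes under the 2 guides share no library. In the scatter of all genes they spread about the diagonal, with a Pearson correlation of 0.53 across genes, given as a description.

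**Figure D1:**
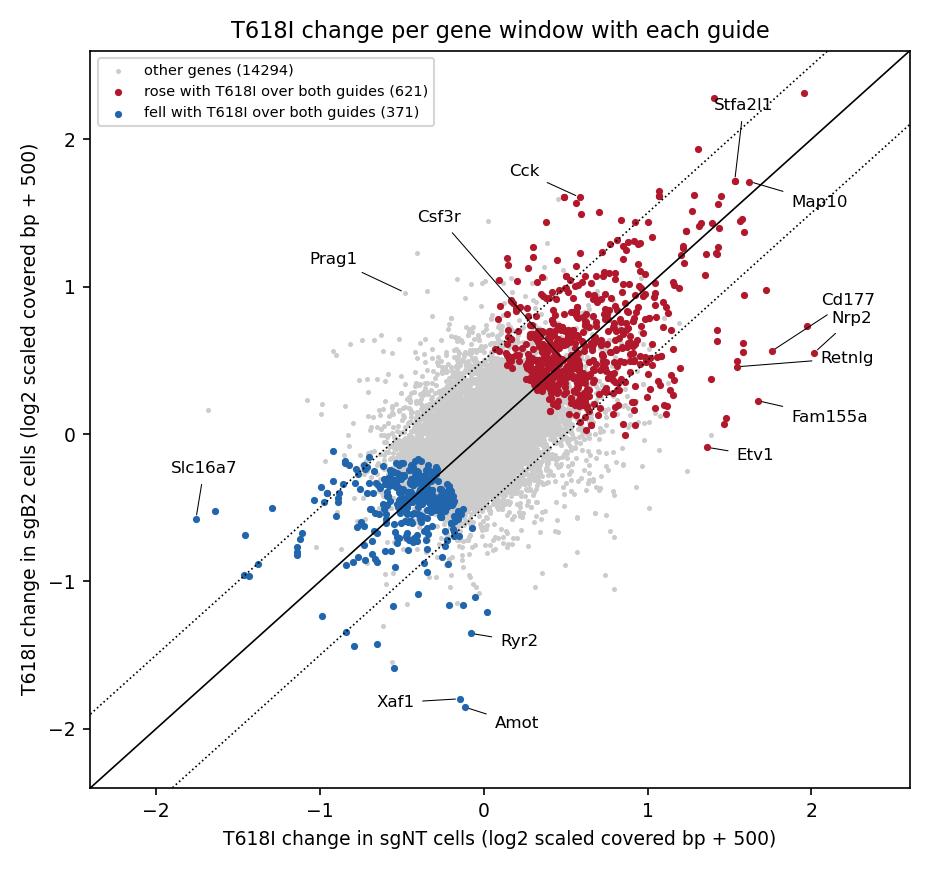
T618I change (T618I minus Empty, log2 of scaled covered bp + 500) of each of 15286 gene windows in sgB2 cells (vertical) and sgNT cells (horizontal). The solid line is the additive response and the dotted lines are 0.5 log2 from it; Amot, Xaf1 and Ryr2 lie below the lines, Nrp2, Etv1 and Fam155a to the right, and Csf3r, Map10 and Stfa2l1 near the diagonal.

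Amot encodes angiomotin, a cell junction scaffold that also binds the Hippo pathway effector YAP (chromosome X, 145446424 to 145505966). Its window held 0, 0 and 0 kb in sgB2/T618I, 1.5, 1.19 and 1.25 kb in sgB2/Empty, 1.19, 1.14 and 1.03 kb in sgNT/T618I and 1.52, 1.34 and 0.94 kb in sgNT/Empty. Only the libraries with both lesions lacked coverage. The sgNT/Empty libraries overlapped both other groups, and sgNT/T618I lay just below sgB2/Empty. The additive expectation for sgB2/T618I was 1.17 kb. The T618I change was -1.85 ± 0.17 (SE) with sgB2 and -0.11 ± 0.17 with sgNT, an interaction of -1.74 ± 0.24 (95% interval -2.24 to -1.24; limma adjusted p = 0.0198). Equivalently, the guide change was -1.70 with T618I and 0.04 with the empty vector. All of this came from 1 region, chromosome X 145504723 to 145506223, which spans the upper end of the gene and was called in 0 of 3 sgB2/T618I, 3 of 3 sgB2/Empty, 3 of 3 sgNT/T618I and 3 of 3 sgNT/Empty libraries. Its 9 peaks were of middling strength, between the 25.5 and 60.9 percentile of their own lists and with a −log10 q, as the authors gave it, of 3.62 to 11.3.

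The Amot call rested on how weak peaks were treated. With peaks of −log10 q of 5 or more, 6 of the 9 were kept and the interaction was 0.053 (adjusted p = 0.998), with equal-length lists it was -0.63 (adjusted p = 0.873), and 9 of 24 alternatives kept the call. Leaving out any 1 library other than sgNT/Empty replicate 1 lost it (limma adjusted p between 0.0507 and 0.122). Over all fits without 1 library the interaction lay between -1.85 and -1.60. The value of -1.85 came from the fit without sgNT/Empty replicate 1, which kept the call. Both sgB2 groups had the lower X share, and the part of that share in the Amot value was not tested.

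No other interaction passed, and the next genes by p-value are given as values. Ryr2, the calcium release channel of heart muscle, had 1.14, 0.667 and 1.09 kb in sgB2/T618I, 2.92, 3.06 and 3.66 kb in sgB2/Empty, 2.92, 1.79 and 2.74 kb in sgNT/T618I and 2.64, 2.50 and 2.67 kb in sgNT/Empty. As at Amot, the libraries with both lesions were the low ones and did not overlap the others. Its interaction was -1.27 ± 0.24 (adjusted p = 0.344), with 0.95 kb fitted in sgB2/T618I against 3.0 kb expected from additivity. Within Ryr2, the regions at chromosome 13 11836818 to 11837280 and 12038661 to 12039107 each had a peak in 0 of 3 sgB2/T618I and 3 of 3 sgB2/Empty libraries, against 1 and 1, and 2 and 2, in sgNT/T618I and sgNT/Empty.

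Fam155a, which codes for a subunit of the NALCN sodium leak channel, showed the opposite arrangement. It had 1.98, 1.37 and 2.17 kb in sgB2/T618I, 1.37, 1.39 and 1.69 kb in sgB2/Empty, 1.31, 0.665 and 1.42 kb in sgNT/T618I and 0, 0 and 0 kb in sgNT/Empty. The libraries with neither lesion were the only ones without coverage. Mean coverage was 1.84 kb in sgB2/T618I, 1.48 kb in sgB2/Empty and 1.13 kb in sgNT/T618I. The interaction was -1.45 ± 0.28 (adjusted p = 0.344), and it passed with an added 100 bp in place of 500 (-3.28, adjusted p = 0.00877). Lrfn2, a synaptic adhesion gene, had the same shape, with 0.97, 0.98 and 0.99 kb in sgB2/T618I, 1.37, 0.48 and 1.05 kb in sgB2/Empty, 0.93, 0.95 and 1.16 kb in sgNT/T618I and 0, 0 and 0.15 kb in sgNT/Empty (interaction -1.40 ± 0.30, adjusted p = 0.543). Its region inside the gene at chromosome 17 49009332 to 49010075 was called in every library of the other 3 groups and in none of sgNT/Empty.

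Etv1, an ETS transcription factor, was high in 1 group only. Its window held 0.227, 0.174 and 0.373 kb in sgB2/T618I, 0.415, 0.239 and 0.262 kb in sgB2/Empty, 2.43, 1.49 and 1.27 kb in sgNT/T618I and 0.390, 0.310 and 0.341 kb in sgNT/Empty. Only sgNT/T618I stood above the rest, without overlap. Mean coverage was 0.26, 0.31 and 0.35 kb in sgB2/T618I, sgB2/Empty and sgNT/Empty. The window thus passed the 500 bp filter only through sgNT/T618I. The T618I change was -0.09 ± 0.20 with sgB2 and 1.36 ± 0.20 with sgNT (interaction -1.45 ± 0.29, adjusted p = 0.344). A region 563 bp outside the gene, at chromosome 12 38778334 to 38779519, was called in all 3 sgNT/T618I libraries and in none of the 9 others.

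Among the remaining genes named by p-value on the lower side, Tnni1 (-1.03), Atp6v1g3 (-0.93), Wdr73 (-0.79), Cant1 (-1.08) and Xaf1 (-1.65) had adjusted p-values between 0.497 and 0.641. Xaf1 is an interferon-induced binding partner of an apoptosis inhibitor, and its window was high in sgB2/Empty alone, with 0, 0.323 and 0 kb in sgB2/T618I, 1.74, 1.46 and 1.46 kb in sgB2/Empty, 0.347, 0.174 and 0.202 kb in sgNT/T618I and 0, 0.459 and 0.634 kb in sgNT/Empty. Mean coverage at Xaf1 was 0.11, 0.24 and 0.36 kb in sgB2/T618I, sgNT/T618I and sgNT/Empty. The window thus passed the 500 bp filter only through sgB2/Empty. Most of the sgB2/Empty coverage lay over the neighbouring gene Slc13a5. A region there, at chromosome 11 72260049 to 72261087, was called in 0 of 3 sgB2/T618I and 3 of 3 sgB2/Empty libraries, and in 0 sgNT/T618I and 1 sgNT/Empty library.

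On the higher side, Prag1, a pseudokinase, led with an interaction of 1.44 ± 0.29 (adjusted p = 0.344). Coverage was 1.18, 1.08 and 1.68 kb in sgB2/T618I, 0.527, 0.556 and 0.226 kb in sgB2/Empty, 0.621, 0.588 and 1.07 kb in sgNT/T618I and 1.24, 1.47 and 1.01 kb in sgNT/Empty. The T618I change thus had opposite signs, 0.96 ± 0.20 with sgB2 and -0.48 ± 0.20 with sgNT. The zinc finger gene Zfp704 had the same crossing, with 3.54, 3.30 and 4.06 kb in sgB2/T618I, 1.94, 2.07 and 2.97 kb in sgB2/Empty, 3.03, 1.85 and 1.95 kb in sgNT/T618I and 3.41, 3.58 and 4.06 kb in sgNT/Empty. For both genes either lesion alone had the lower mean, while both together were near the level with neither. The Zfp704 interaction of 1.18 ± 0.24 (adjusted p = 0.344) became -0.17 with stricter peaks.

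Sox5, Grk3, Dld, Fgf4, Sh3bp4, Gsg1, Ank3 and Capn7 followed, between 0.70 and 1.29 and with adjusted p-values of 0.641 to 0.666. Fgf4, a fibroblast growth factor gene, shares its window with Fgf3, and there the signal came from the Fgf3 promoter printed above. The region around it, chromosome 7 144837922 to 144839682, was called in 3 sgB2/T618I, 0 sgB2/Empty, 0 sgNT/T618I and 2 sgNT/Empty libraries. Its peaks were weak, at a mean percentile of 9.32.

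**Figure D2:**
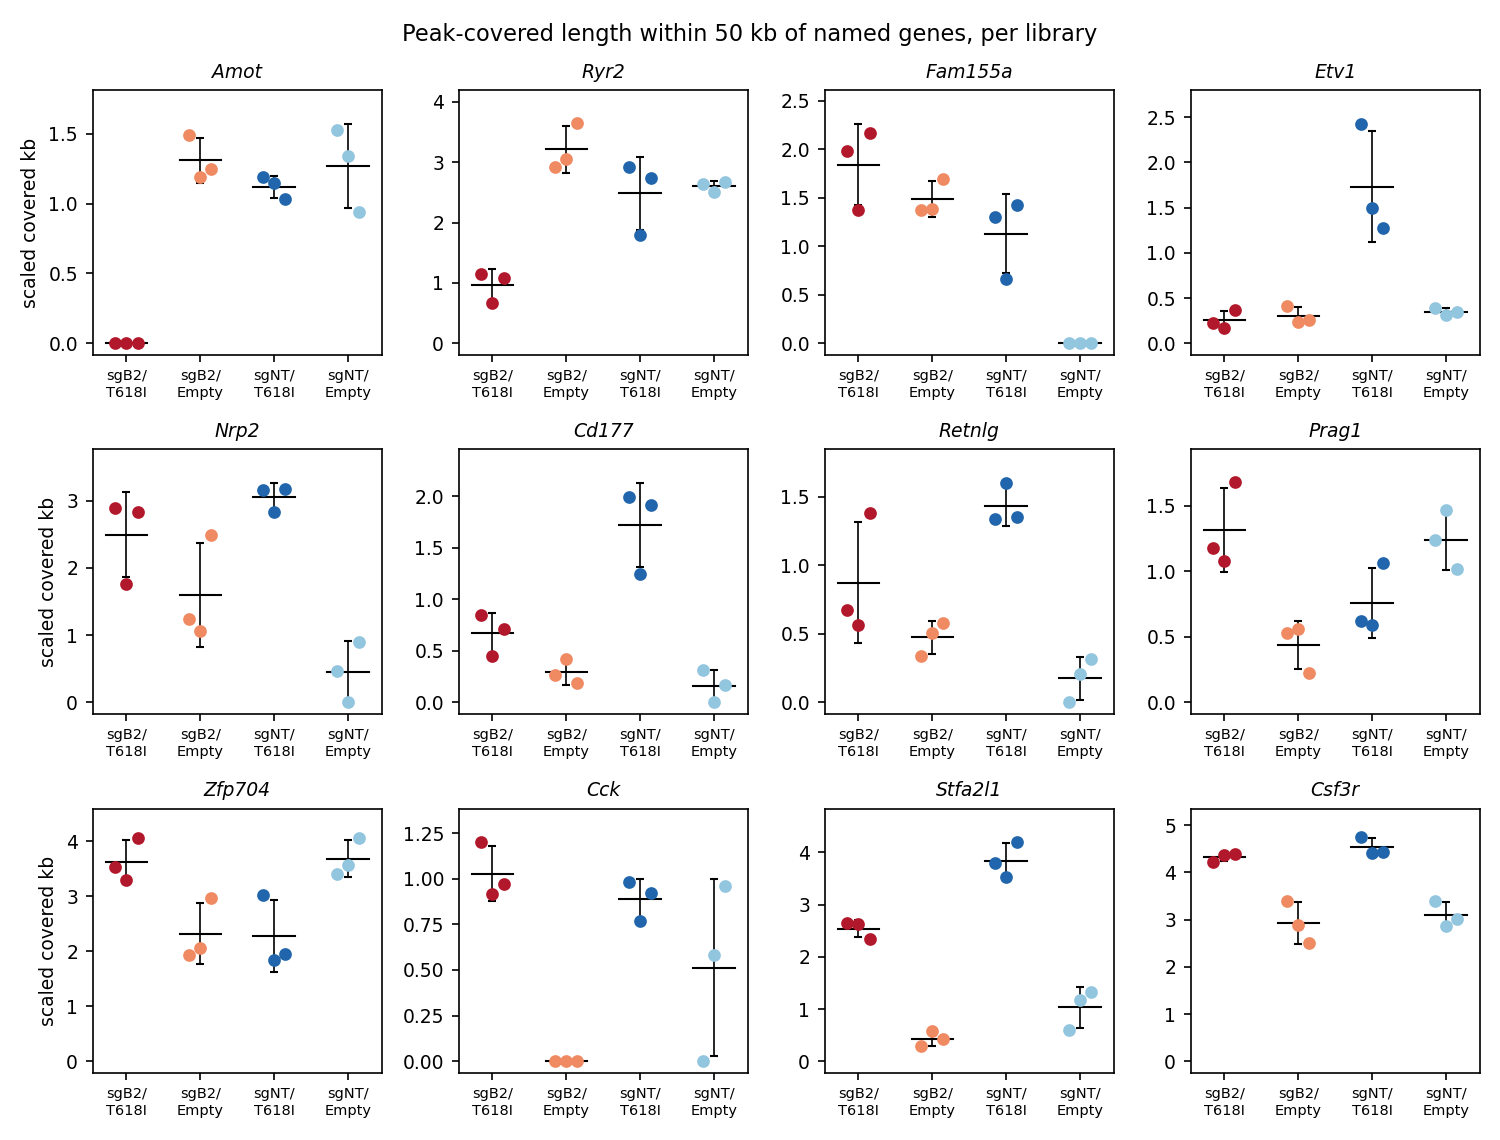
Scaled covered kb within 50 kb of 12 genes in each library, with 3 points per group (sgB2/T618I, sgB2/Empty, sgNT/T618I, sgNT/Empty), the mean as a line and the SD as a bar. Amot is at 0 only in sgB2/T618I, Fam155a is at 0 only in sgNT/Empty, Etv1 is high only in sgNT/T618I, and Csf3r and Stfa2l1 follow T618I under either guide.

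The genes that respond to T618I were taken from its effect averaged over both guides. With equal spread in all groups, the estimate of that effect is uncorrelated with the interaction. The 2 tests are not independent, since they share 1 estimate of the spread per gene. Coverage rose at 621 genes (4.06% of those tested) and fell at 371 (2.43%). Of the 621, 52 (8.37%) were enhanced, 57 (9.18%) blunted and 512 (82.4%) near additive. Their median T618I change was 0.56 with sgB2 and 0.57 with sgNT, and it was positive in 619 and in 621 of them. Of the 371, 21 (5.66%) were enhanced, 19 (5.12%) blunted and 331 (89.2%) near additive, with a median T618I change of -0.45 with sgB2 and -0.41 with sgNT.

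Among all genes tested, 3.57% had an interaction of that size along their mean T618I change and 3.07% against it. Enhanced and blunted genes were thus about equally many in each direction, and the median interaction along the T618I change was 0.02 for both risen and fallen genes and 0.01 for all genes. Unadjusted p-values below 0.05 were found for 93 risen genes (15%) and 37 fallen ones (9.97%), beside 4.91% of all genes. Because the tests share the spread, the choice of genes can itself raise these shares, and how far was not tested. Of the risen and fallen genes, Amot among the fallen was the 1 gene that passed adjustment. The 95% interval lay within ± 1 for 464 of the risen and 318 of the fallen genes, and within ± 0.5 for 78 and 86. Its median reach on either side was 0.51 log2 in the risen and 0.45 in the fallen genes. Their median T618I changes over both guides were 0.57 and -0.43, of about that size. At most of these genes an interaction of 0.5 log2 was thus not excluded. Median coverage was 2.24 kb in the risen, 2.37 kb in the fallen and 2.23 kb in all genes, and the median SE 0.24, 0.21 and 0.22.

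**Figure D3:**
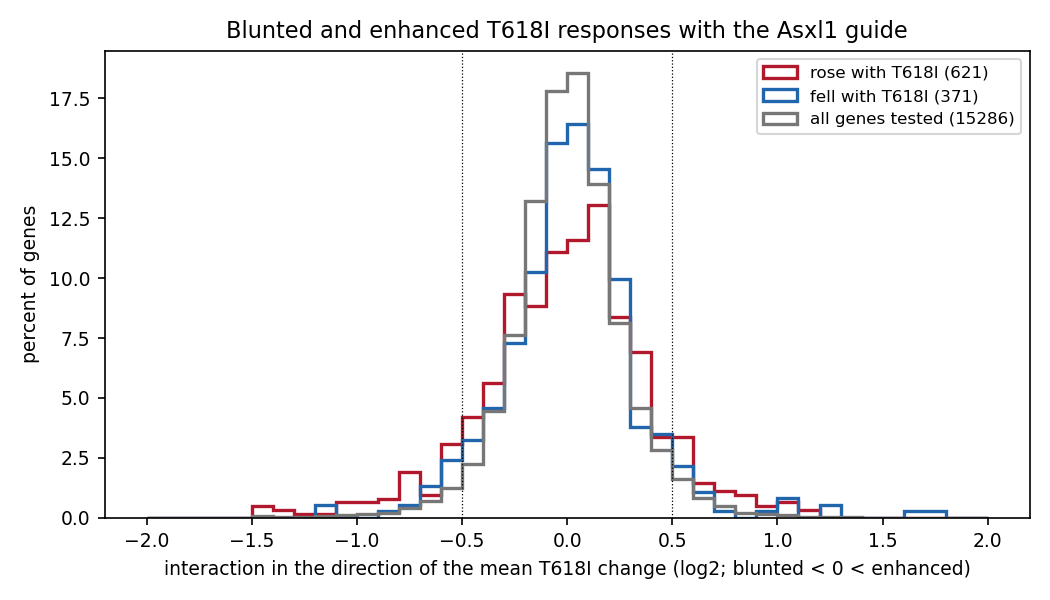
Percent of genes (vertical) by interaction signed along the mean T618I change (horizontal, log2), for 621 genes that rose with T618I, 371 that fell and all 15286 tested. The 3 outlines centre near 0; values beyond the dotted lines at 0.5 are called enhanced on the right and blunted on the left, and the 621 risen genes have the wider spread on both sides.

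The near-additive rises and falls named here were picked from responders with an interaction under 0.25 log2 in size. Their small interactions were thus set by the choice. Among such genes they had the largest mean T618I change, not the narrowest intervals. Stfa2l1, of the stefin family of cysteine protease inhibitors made by neutrophils, held 2.65, 2.62 and 2.35 kb in sgB2/T618I, 0.293, 0.574 and 0.426 kb in sgB2/Empty, 3.79, 3.53 and 4.2 kb in sgNT/T618I and 0.595, 1.18 and 1.34 kb in sgNT/Empty. T618I libraries were the higher ones under either guide, and sgB2 libraries were lower than sgNT ones with either vector. The log2 T618I change was 1.72 ± 0.18 with sgB2 and 1.53 ± 0.18 with sgNT, an interaction of 0.18 ± 0.26 (95% interval -0.36 to 0.73). Mean coverage went from 0.43 to 2.54 kb with sgB2 and from 1.04 to 3.84 kb with sgNT, so in kb the increase was larger with sgNT. On this scale additivity means an equal ratio of covered length plus 500 bp. It does not mean an equal increment or, at low coverage, an equal ratio of covered length itself. The locus also held a promoter that did not follow the sum. The Stfa2l1 promoter region printed above, chromosome 16 36156344 to 36157107, was called in 3 sgB2/T618I, 0 sgB2/Empty, 3 sgNT/T618I and 3 sgNT/Empty libraries, so that only the guide without the receptor lacked it.

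Stfa2 (interaction -0.12, 95% interval -0.92 to 0.68), Map10 (0.09, -0.87 to 1.05), Ankrd66 (0.13, -0.84 to 1.11) and the cytochrome P450 gene Cyp2b13 (-0.04, -1.13 to 1.06) were the other named near-additive rises. Their intervals reach close to or past 1 log2, so a moderate interaction was not detectable there. A narrower interval was found at S100a9, a calprotectin subunit of neutrophils, chosen after its values were seen (interaction -0.02, 95% interval -0.37 to 0.33). The named near-additive falls had narrower intervals than Stfa2, Map10, Ankrd66 and Cyp2b13, but not than S100a9. Bnc2, a zinc finger gene, gave -0.25 (-0.86 to 0.36), the defensin gene Defb36 -0.05 (-0.60 to 0.51), Fer1l6 -0.07 (-0.58 to 0.44), Sowahb -0.07 (-0.69 to 0.56) and Mks1, a gene of the ciliary transition zone, -0.13 (-0.59 to 0.33). Bnc2 coverage was 0, 0 and 0 kb in sgB2/T618I, against 0.348, 0.300 and 0.398 kb in sgNT/T618I. With 0.09 kb expected from additivity, the floor at 0 limited how negative its interaction could be. At Defb36 coverage was 0.608, 0.344 and 0.621 kb in sgB2/T618I, 1.34, 1.51 and 1.29 kb in sgB2/Empty, 0.759, 0.366 and 0.404 kb in sgNT/T618I and 1.42, 1.05 and 1.42 kb in sgNT/Empty, so that both T618I groups lay below both Empty groups by a like amount.

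Blunted rises were led by Nrp2, a co-receptor for semaphorins and vascular endothelial growth factors. It held 2.89, 1.77 and 2.84 kb in sgB2/T618I, 1.24, 1.06 and 2.49 kb in sgB2/Empty, 3.17, 2.83 and 3.18 kb in sgNT/T618I and 0.469, 0 and 0.9 kb in sgNT/Empty. The sgNT/Empty libraries were the lowest, and sgB2/T618I overlapped sgB2/Empty. The T618I change was 0.55 ± 0.30 with sgB2 and 2.02 ± 0.30 with sgNT (interaction -1.47 ± 0.43, adjusted p = 0.777). Regions inside the gene at chromosome 1 62724455 to 62725340 and 62760103 to 62760440 were each called in all 3 sgNT/T618I libraries and nowhere else.

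Nfatc2, a calcineurin-dependent transcription factor, had 2.56, 2.29 and 2.75 kb in sgB2/T618I, 2.91, 2.21 and 1.89 kb in sgB2/Empty, 1.80, 2.08 and 1.43 kb in sgNT/T618I and 0, 0.562 and 0.495 kb in sgNT/Empty (interaction -1.37 ± 0.33, adjusted p = 0.641). Again the low group was sgNT/Empty, without overlap. Of the 5 blunted rises named by size, Nrp2, Fam155a, Lrfn2 and Nfatc2 had this form, in which the guide alone already had more coverage, and Etv1 had the form in which T618I added coverage only without the guide.

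Enhanced rises had the mirrored form, with the guide alone at the bottom. Cck, the cholecystokinin gene, held 1.20, 0.914 and 0.968 kb in sgB2/T618I, 0, 0 and 0 kb in sgB2/Empty, 0.980, 0.766 and 0.920 kb in sgNT/T618I and 0, 0.580 and 0.959 kb in sgNT/Empty. Libraries with T618I were alike under either guide, and the interaction of 1.02 ± 0.40 (adjusted p = 0.962) came from the Empty groups, 1 of whose sgNT libraries was also at 0. That library, sgNT/Empty replicate 1, has the shortest list of all 12. Gm4779, which shares its window with 8030474K03Rik, had the same pattern (1.12 ± 0.42, adjusted p = 0.926), and it passed without that library (1.63, adjusted p = 0.0112). Rnf217 (1.06), Hebp1 (1.05) and Nipal4 (1.01) completed the 5 named, with adjusted p-values from 0.926 to 0.999.

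Among genes that fell with T618I, the enhanced ones were led by Amot, Xaf1 and Ryr2. Spp1, the gene of the secreted phosphoprotein osteopontin, came next with 0, 0.209 and 0 kb in sgB2/T618I, 0.628, 0.953 and 0.835 kb in sgB2/Empty, 1.70, 1.92 and 1.46 kb in sgNT/T618I and 1.08, 2.38 and 1.71 kb in sgNT/Empty (interaction -1.23 ± 0.31, adjusted p = 0.666). The sgB2 libraries were all below the sgNT ones, and those with both lesions were lowest. A region 26350 bp from the gene, chromosome 5 104407565 to 104408761, was called in no sgB2/T618I library and in all 9 others. Tspan15, a tetraspanin that guides the protease ADAM10, gave -1.05 ± 0.27 (adjusted p = 0.666).

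Slc16a7 led the blunted falls. It encodes a monocarboxylate transporter and held 0.288, 0.902 and 0.324 kb in sgB2/T618I, 0.755, 0.664 and 1.57 kb in sgB2/Empty, 0, 0 and 0 kb in sgNT/T618I and 0.811, 1.44 and 1.39 kb in sgNT/Empty (interaction 1.18 ± 0.36, adjusted p = 0.786). Coverage was absent only with T618I and the non-targeting guide. The brain transcription factor gene Npas3 (1.12 ± 0.35), Pdcd5 (0.80), Mras (0.79), a Ras-related GTPase, and Rsrc1 (0.67) followed, with adjusted p-values from 0.808 to 0.975. Npas3 and Mras were likewise lowest in sgNT/T618I without overlap, and Pdcd5 was instead highest in sgNT/Empty.

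The engineered genes gave no interaction that passed. At Csf3r, on chromosome 4 126023441 to 126044975, coverage was 4.23, 4.38 and 4.39 kb in sgB2/T618I, 3.39, 2.89 and 2.51 kb in sgB2/Empty, 4.76, 4.41 and 4.43 kb in sgNT/T618I and 3.40, 2.88 and 3.01 kb in sgNT/Empty. T618I libraries were above Empty libraries by nearly the same amount with either guide, 0.50 ± 0.12 with sgB2 and 0.49 ± 0.12 with sgNT. The interaction was 0.02 ± 0.17 (95% interval -0.34 to 0.37), and peaks from the vector's copy and from the mouse gene cannot be separated in these lists. Its sign changed in 7 alternatives, the lowest at -0.35.

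At Asxl1, on chromosome 2 153345830 to 153404007, coverage was 3.33, 4.90 and 4.23 kb in sgB2/T618I, 2.23, 4.98 and 3.66 kb in sgB2/Empty, 5.13, 5.74 and 5.27 kb in sgNT/T618I and 2.28, 2.06 and 3.75 kb in sgNT/Empty. Averaged over guides it rose with T618I (0.57, adjusted p = 0.0393), and that change was 0.22 ± 0.22 with sgB2 and 0.92 ± 0.22 with sgNT. The interaction of -0.70 ± 0.31 did not pass (adjusted p = 0.999). A region just outside the gene, inside Nol4l at 153409312 to 153410642, was called in 0 sgB2/T618I, 2 sgB2/Empty, 3 sgNT/T618I and 1 sgNT/Empty libraries. A peak list cannot show whether the guide edited the gene. Hoxb8, whose window holds the same peaks as those of its neighbours Hoxb5, Hoxb6, Hoxb7 and Hoxb9, had an interaction of -0.53 ± 0.32 (adjusted p = 0.999).

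Of 17 gene lists with 279 members, 275 were in the reference and 252 were tested. None of the 252 passed the interaction test, and 19 (7.54%) had an unadjusted p below 0.05, beside 4.91% of all genes. The median of 16 lists lay between -0.10 and 0.12, and that of all genes was -0.00.

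In the 3 neutrophil lists most members that rose with T618I did so by a like amount with either guide. Of 20 mature neutrophil genes, 10 rose with T618I over both guides, and the list's median change was 0.31 with sgB2 and 0.36 with sgNT. Of 8 tested stefin and proteinase inhibitor genes 6 rose, with medians of 0.94 and 0.91. Of 18 secondary and tertiary granule genes 5 rose, with medians of 0.23 and 0.23. Over these 3 lists 21 of 46 tested members rose, of which 0 were enhanced and 5 (23.8%) blunted, beside 9.18% of all risen genes. Members and lists were chosen with earlier results of these data known, so these shares are no test of neutrophil genes. The primary granule list was not counted here, and its 1 risen member, Ctsc, had an interaction of -0.19. The 21 are fewer separate observations, since Fpr1 and Fpr2, Clec4d and Clec4e, and Stfa2l1 and Cstdc4 have the same values, and S100a8 and S100a9, and Cd177 and Ceacam10, share most of their peaks. The 5 were Retnlg, Trem1, Cd177, Ceacam10 and Csta1, and the median interaction of the 21 was -0.11.

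Cd177, a surface glycoprotein of neutrophil secondary granules, held 0.845, 0.453 and 0.713 kb in sgB2/T618I, 0.261, 0.422 and 0.189 kb in sgB2/Empty, 1.99, 1.25 and 1.91 kb in sgNT/T618I and 0.309, 0 and 0.170 kb in sgNT/Empty. The T618I libraries were higher than the Empty ones with both guides, and the sgB2/T618I libraries all lay below the sgNT/T618I ones. The T618I change was 0.56 ± 0.22 with sgB2 and 1.76 ± 0.22 with sgNT (interaction -1.20 ± 0.31, adjusted p = 0.685). Next to it, Ceacam10 shares 4 regions with Cd177 (-1.24 ± 0.41, limma adjusted p = 0.913). Both windows passed the 500 bp filter only through sgNT/T618I. Mean coverage in sgB2/T618I, sgB2/Empty and sgNT/Empty was 0.67, 0.29 and 0.16 kb at Cd177 and 0.52, 0.07 and 0.05 kb at Ceacam10. The Ceacam10 promoter region and the region 807 bp outside Cd177, chromosome 7 24761141 to 24761852, were each called in 1 sgB2/T618I, 0 sgB2/Empty, 3 sgNT/T618I and 0 sgNT/Empty libraries.

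Retnlg, which codes for a resistin-like protein secreted by neutrophils, also had the smaller T618I change with sgB2, but in another form. Coverage was 0.671, 0.568 and 1.38 kb in sgB2/T618I, 0.341, 0.505 and 0.578 kb in sgB2/Empty, 1.34, 1.6 and 1.35 kb in sgNT/T618I and 0, 0.208 and 0.314 kb in sgNT/Empty. One sgB2/T618I library reached the sgNT/T618I level and the others did not. Another lay within the sgB2/Empty range, and every sgB2/Empty library was above every sgNT/Empty one. The guide change was -0.54 with T618I and 0.55 with the empty vector, against -0.92 and 0.28 at Cd177. Its T618I change was 0.46 ± 0.23 with sgB2 and 1.55 ± 0.23 with sgNT (interaction -1.09 ± 0.32, adjusted p = 0.777). Its promoter region, chromosome 16 48871744 to 48872776, which covers the sequence printed above, was called in 1 sgB2/T618I, 0 sgB2/Empty, 3 sgNT/T618I and 0 sgNT/Empty libraries. Trem1, an activating receptor of neutrophils and monocytes (-0.50), and Csta1, a stefin (-0.52), had adjusted p = 0.999.

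The 10 neutrophil marker genes together covered 27.4 to 30.3 kb in sgB2/T618I, 16.8 to 18.03 kb in sgB2/Empty, 33.5 to 38.2 kb in sgNT/T618I and 17.94 to 19.98 kb in sgNT/Empty. The sum separated the sgB2/T618I from the sgNT/T618I libraries without overlap, while the Empty groups overlapped. S100a8 and S100a9 share most of their peaks, and the sum counts these under both genes. Whether the separation holds with shared peaks counted once was not tested. For the 4 promyelocyte markers, whose genes encode azurophil granule proteins of earlier neutrophil precursors, the sums were 17.96 to 20.1 kb in sgB2/T618I, 26.7 to 30.6 kb in sgB2/Empty, 23.8 to 25.6 kb in sgNT/T618I and 25.7 to 36.4 kb in sgNT/Empty. Peaks in the part of the window that Prtn3 shares with its neighbour Elane likewise enter the promyelocyte sums under both genes. In a bulk library, fewer cells of a type and less open chromatin per cell cannot be told apart.

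Prtn3, which codes for proteinase 3, held 6.25, 5.83 and 6.35 kb in sgB2/T618I, 10.2, 9.03 and 9.07 kb in sgB2/Empty, 8.21, 8.12 and 8.51 kb in sgNT/T618I and 11.4, 7.72 and 9.02 kb in sgNT/Empty. The libraries with both lesions were the lowest. Averaged over guides it fell with T618I (-0.37, limma adjusted p = 0.0154). The change was -0.58 ± 0.12 with sgB2 and -0.16 ± 0.12 with sgNT, and the interaction was -0.42 ± 0.17 (adjusted p = 0.962). Its neighbour Elane, neutrophil elastase, shares most of that window (-0.37 ± 0.18). Of 11 primary granule genes tested, 8 had a negative interaction, with a list median of -0.10.

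The 20 CSF3R signalling genes had a median interaction of -0.06 and a range of -0.20 to 0.24, within 0.5 log2 in each case, and their named members Shc1 (-0.20), Cish (0.18) and Ptpn6 (-0.16), an adaptor, a STAT5-induced inhibitor and a phosphatase, had 95% intervals within ± 0.51. Among 20 JAK-STAT targets the median was 0.04. Bcl6, a transcriptional repressor, had the highest value of that list, 0.89 ± 0.35 (adjusted p = 0.962), with 2.6, 2.6 and 3.23 kb in sgB2/T618I, 0.816, 0.895 and 2.72 kb in sgB2/Empty, 2.84, 2.96 and 2.26 kb in sgNT/T618I and 3.11, 2.65 and 2.41 kb in sgNT/Empty. Only sgB2/Empty had low libraries, and 1 of its 3 was not low. Socs2, a cytokine signalling suppressor, gave 0.55 ± 0.26 and Jak1 0.41 ± 0.18 (adjusted p = 0.999 for both).

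Of the 20 NF-kB and AP-1 genes, 12 had a positive interaction, with a median of 0.12. Within the AP-1 family the values differed in sign, -0.44 ± 0.17 at Fos (adjusted p = 0.962) and 0.54 ± 0.26 at Jun and 0.37 ± 0.22 at Fosl2 (adjusted p = 0.999). The 20 myeloid transcription factors had a median of 0.12 and a range of -0.32 to 0.35, with Spi1, the gene of PU.1, at -0.25 ± 0.15.

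The Polycomb and ASXL-BAP1 list, the guide's own pathway, had a median of 0.03 over 19 genes. Beside Asxl1, Bap1, the deubiquitinase that ASXL1 activates, reached 0.62 ± 0.26 (adjusted p = 0.999). It held 1.94, 2.66 and 1.52 kb in sgB2/T618I, 1.74, 1.37 and 1.78 kb in sgB2/Empty, 1.89, 2.6 and 1.63 kb in sgNT/T618I and 3.40, 2.74 and 2.27 kb in sgNT/Empty, with the highest mean in sgNT/Empty and overlap with both T618I groups. Rnf2, a Polycomb ubiquitin ligase, gave 0.29 ± 0.21.

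The Hox list was the 1 list whose median stood away from 0. All 10 tested members were negative, with a median of -0.53, and a T618I change of -0.32 with sgB2 and 0.21 with sgNT. These are mostly 1 observation, since the Hoxb genes lie side by side and share their few peaks. Hoxb2 held 0.672, 1.02 and 0.461 kb in sgB2/T618I, 0.910, 1.01 and 1.07 kb in sgB2/Empty, 1.12, 1.29 and 1.11 kb in sgNT/T618I and 0.608, 1.19 and 0.750 kb in sgNT/Empty (interaction -0.65 ± 0.27, adjusted p = 0.986), and sgNT/T618I lay above both sgB2 groups, while the other groups overlapped. Meis1, a Hox cofactor also listed among progenitor genes, gave -0.53 ± 0.37.

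Among genes of other lineages, Ebf1, which specifies B cells, held 0.383, 0.983 and 0.459 kb in sgB2/T618I, 2.24, 1.85 and 1.67 kb in sgB2/Empty, 1.3, 1.5 and 1.22 kb in sgNT/T618I and 1.38, 1.47 and 1.67 kb in sgNT/Empty. The libraries with both lesions were the lowest, without overlap (interaction -1.04 ± 0.26, adjusted p = 0.666). No peak was called at the Ebf1 promoter in any library. Tcf7, a T cell factor, gave 0.71 ± 0.30, the megakaryocyte and erythroid factor Gata1 -0.56 ± 0.23, the macrophage transglutaminase gene F13a1 0.61 ± 0.26 and the progenitor factor Erg -0.54 ± 0.20, with adjusted p-values from 0.926 to 0.999. The 20 housekeeping genes had a median of -0.02 and a range of -0.36 to 0.37.

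**Figure D4:**
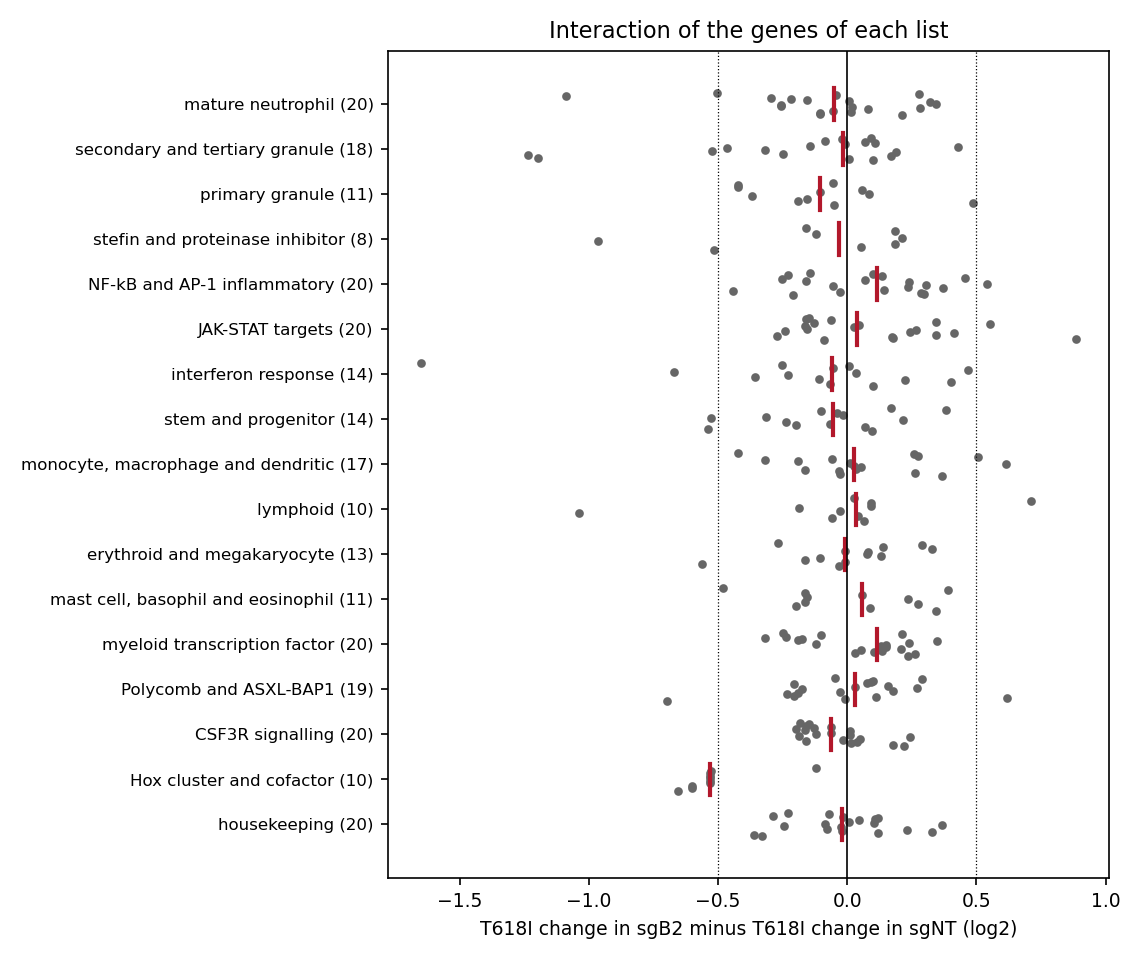
Interaction (T618I change with sgB2 minus T618I change with sgNT, log2) of every tested gene of 17 lists, 1 point per gene, with the number tested in brackets and the list median as a red bar. The Hox list lies left of 0 with a median of -0.53 and shares windows among its members; the other medians lie between -0.10 and 0.12.

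Single regions were described by their number of libraries with a peak, as the T618I minus Empty count with sgB2 less the same count with sgNT. This runs from -6 to 6. It was 0 in 20202 of 37113 regions, 13356 of which were called in all 12 libraries. Values of 3 or more were found in 807 regions (2.17%) and of -3 or less in 951 (2.56%). Regions at 3 or more had a median width of 477 bp and a median percentile of 21.9 in their lists, and 5.20% lay at a promoter. Those at -3 or less had 475 bp, 27 and 7.15%. Other regions not called everywhere had much the same, 482 bp, 25 and 7.28%, whereas regions called in all 12 libraries had 880 bp, 71.2 and 52.8%. Regions with a large difference of differences were therefore weak and mostly away from promoters, as variable regions were in general.

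In 934 regions every group was all or none, with a peak in 3 or 0 of its libraries, and at least 1 group had none. Of these, 381 had a difference of differences of 0, led by 254 that T618I gained with both guides, and 553 did not. T618I gained 146 regions with sgB2 alone and 165 with sgNT alone. It lost 32 with both guides, 53 with sgB2 alone and 9 with sgNT alone. Another 51 were missing only in sgB2/Empty and 40 only in sgNT/Empty, and 44 were present only in sgB2/Empty and 44 only in sgNT/Empty.

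The balance between regions gained with sgB2 alone and with sgNT alone moved with the peak lists. With peaks of −log10 q of 5 or more it was 32 against 149, and in equal-length lists 118 against 97. Regions gained with both guides numbered 137 and 191 under these settings.

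**Figure D5:**
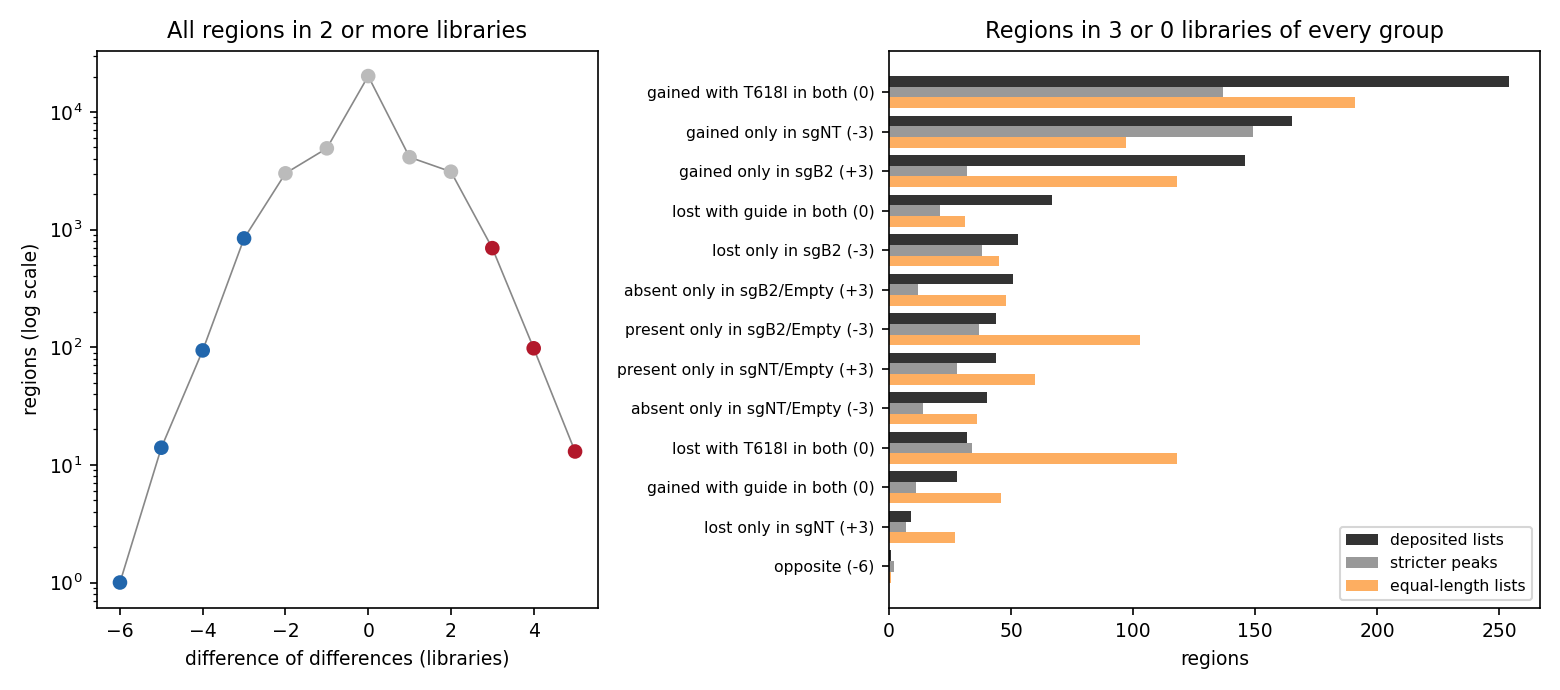
Left, number of regions (log axis) by difference of differences in library counts, with values of 3 or more in red and -3 or less in blue. Right, number of regions for each pattern with 3 or 0 libraries in every group, with the difference of differences in brackets, from the deposited lists (dark), stricter peaks (grey) and equal-length lists (orange); the 13356 regions called in all 12 libraries are left out, and of the patterns drawn, gain with T618I under both guides held the most regions of the deposited lists, 254.

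Regions that T618I gained with sgNT alone included those in Nrp2, one in Celf2, an RNA-binding protein gene (chromosome 2, 7076197 to 7076390), and one 25155 bp from the chemokine receptor gene Ccr1 (chromosome 9, 123936684 to 123936971). Those gained with sgB2 alone included one within Slc11a1, a metal transporter of phagocyte vesicles (chromosome 1, 74381460 to 74381941), and one 80682 bp from Prdm1, a repressor that drives terminal differentiation (chromosome 10, 44609240 to 44609485). Those lost with sgB2 alone included regions in Rasgrp3, a Ras activator (chromosome 17, 75461765 to 75462135), and in Nsd3, a histone methyltransferase gene (chromosome 8, 25715177 to 25715794). A region missing only in sgB2/Empty lay 4091 bp from Ngp, a neutrophil granule gene (chromosome 9, 110415176 to 110415717). These are among the 4 regions of each pattern with the strongest peaks, chosen by rank, and carry no test.

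A single region had the largest possible difference. It lies in Edn3, the gene of endothelin 3 (chromosome 2, 174774378 to 174774866), and was called in 0 of 3 sgB2/T618I, 3 of 3 sgB2/Empty, 3 of 3 sgNT/T618I and 0 of 3 sgNT/Empty libraries, so that each lesion alone went with it and both or neither did not. Its peaks were weak, at a mean percentile of 24.2.

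Of 8757 regions at a promoter, 42 were at 3 or more and 68 at -3 or less, so that promoters made up 5.20% and 7.15% of regions of that size, beside 23.6% of all regions. A promoter here is the RefSeq window of 300 bases around the start, and 82 protein-coding genes had such a region. The Myadm promoter, printed above, had a region (chromosome 7, 3290200 to 3290573) with peaks in 1 sgB2/T618I, 3 sgB2/Empty, 3 sgNT/T618I and 0 sgNT/Empty libraries. Myadm encodes a membrane protein of myeloid cells. Il1rn, the antagonist of the interleukin-1 receptor, had its promoter region called in 1 sgB2/T618I, 3 sgB2/Empty, 3 sgNT/T618I and 2 sgNT/Empty libraries. The promoter region of Lgals3bp, a secreted galectin-binding glycoprotein in the Cant1 window, was called in 0 sgB2/T618I, 1 sgB2/Empty, 3 sgNT/T618I and 0 sgNT/Empty libraries. Il1rn and Lgals3bp were picked from the 82 after the values were seen.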

How the data were processed

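ATAC-seq peak lists of 12 libraries were used. Reads were processed on mm10 with BWA 0.7.17, SAMtools 1.9, bedtools 2.30, MACS2 2.2.7.1 and deepTools 3.5, per the submitters' processing notes, which give no settings. Each deposited list gives, per peak and library, a position, a score, a fold enrichment (ratio), and −log10 p and −log10 q values. The deposited score was 10 times the deposited −log10 q, rounded down, in over 99% of peaks. No reads were used, so depth and counting error are unknown, and a list's length depends on its depth.

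Peaks on chromosomes 1 to 19 and X were used. Covered bp within 50 kb of each RefSeq protein-coding gene (GRCm38.p6 coordinates) were scaled to an equal total per library. Genes averaging 500 bp or more over libraries entered the test, on log2(bp + 500) with limma 3.58.1 (R 4.3.3), 4 group means over all 12 libraries, trended variance and Benjamini-Hochberg adjustment at 0.05. Regions are peaks of all libraries merged where they overlap by at least 1 bp. Library totals had a two-sided exact permutation test of guide labels within each vector. The script was tested on simulated data.

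Genes were named by p-value for the interaction, by size among T618I-responsive genes in each response class, and from the gene lists. Members and lists were chosen with earlier results of these data known. Replicate numbers did not pair libraries. Alternatives were another window, added length, filter, scaling, stricter and equal-length lists, peak number, a covariate, a replicate block and leaving out libraries.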

Additional observations from a re-analysis of the deposited data

Results flagged for a closer look

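The interaction of Amot was -1.74 ± 0.24 on the log2 scale (limma adjusted p = 0.0198), picked out because the T618I change differed between the guides by a direct test. The T618I change was -1.85 with sgB2 and -0.11 with sgNT. The cause was not tested.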

How the results depend on the processing

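Read depth is unknown, and peak presence depends on it. With equal-length lists 3 interactions were higher (Kcnk12, Tnik and Foxo1), without the 2 shortest lists, chosen after seeing the data, 2 (Gm4779 and 8030474K03Rik), and leaving out 1 library each gave 0 to 2. The count of lower ones was 2 with 100 bp added, 0 with 2000 bp added, a 2000 bp filter, stricter peaks, peak number or without chromosomes 1 and X, and 0 to 1 on leaving out 1 library. Risen enhanced genes (52) numbered 3 with 2000 bp added, 20 with the 2000 bp filter, 28 with stricter peaks, 33 with the peak number covariate, 6 at a size of 1 log2, and 35 to 87 on leaving out 1 library. Risen blunted genes (57) numbered 26 with 10 kb windows, 12 with 2000 bp added, 17 with the 2000 bp filter, 35 by peak number, 25 with the covariate, 11 at 1 log2, and 37 to 117 on leaving out 1 library. Fallen enhanced genes (21) numbered 5 with 2000 bp added, 5 without scaling, 9 with the 2000 bp filter, 35 with equal-length lists, 7 at 1 log2, and 13 to 45 on leaving out 1 library. Fallen blunted genes (19) numbered 12 with 10 kb windows, 0 with 2000 bp added, 6 without scaling, 2 with the 2000 bp filter, 8 with stricter peaks, 44 with equal-length lists, 2 at 1 log2, and 9 to 35 on leaving out 1 library.

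Regions at 3 or more (807) numbered 185 with stricter peaks and 532 to 1739 on leaving out 1 library, and those at -3 or less (951) 700 to 1598, with the shortened group scaled to 3 libraries. Regions gained with sgNT alone (165) numbered 97 with equal-length lists, and those gained with sgB2 alone (146) 32 with stricter peaks. With stricter peaks the interaction was -1767 peaks and -0.68 Mb. Leaving out 1 library gave -2659 to 3436 peaks, -1.41 to 2.39 Mb and -11.8 to 20.7 bp of width. Signs turned with stricter peaks at Zfp704 (-0.17), Capn7 (-0.10), Amot (0.053), Tnni1 (0.42) and Csf3r (-0.041), with equal-length lists at Fgf4 (-0.011), Capn7 (-0.17) and Csf3r (-0.23), and at Csf3r with 10 kb windows (-0.35), by peak number (-0.082) and on leaving out 1 library (-0.074 to 0.11). The causes were not tested. With a replicate block 0 genes were higher and 1 lower (Amot, adjusted p = 0.0383). Of 18 same-number pairs 4 correlated above 0.1, and 4 of 12 libraries correlated best with their own number, so the block pairs libraries by number only. It left 51 risen enhanced, 58 risen blunted, 26 fallen enhanced and 18 fallen blunted genes, and 790 and 943 regions.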

Other observations

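Peak width, taken as the bp under peaks within a region, gave a second reading at the 13356 regions called in all 12 libraries. Every library thus had a peak in each of these regions. A merged region can hold several peaks of the same library, so a lower width can still reflect a missing peak. Widths were scaled to an equal total covered length per library. Before scaling, mean covered length was 14.6 Mb in sgB2/T618I, 11.6 Mb in sgB2/Empty, 16.3 Mb in sgNT/T618I and 13.5 Mb in sgNT/Empty. Averaged over guides, 108 regions were wider and 124 narrower with T618I. The median T618I change of all these regions was -0.18 log2, so both counts are relative to the scaling. No interaction in width passed (limma, smallest adjusted p = 0.0925), and 524 regions (3.92%) had an unadjusted p below 0.05. The median SE was 0.33 log2. The smallest p-value belonged to a region 276442 bp from Mat2b (chromosome 11, 40402013 to 40402872). Its scaled width was 725, 652 and 761 bp in sgB2/T618I, 284, 200 and 216 bp in sgB2/Empty, 232, 364 and 492 bp in sgNT/T618I and 466, 651 and 462 bp in sgNT/Empty. It was widest in sgB2/T618I without overlap (interaction 2.21 ± 0.37).

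The promoter region of Pnpla6, a phospholipase gene (chromosome 8, 3515300 to 3517110), had an interaction in width of 1.88 ± 0.34 (adjusted p = 0.104). A region 2669 bp from the ciliary gene Ahi1 (chromosome 10, 21083098 to 21084049) had -1.96 ± 0.36 (adjusted p = 0.104), and one within Il10rb, a subunit of the interleukin-10 receptor (chromosome 16, 91405712 to 91407124), 1.44 ± 0.29 (adjusted p = 0.211).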
